A study of Mus musculus with 8 samples.

Results

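A set of 35 genes of immune cells and their signals was followed in RNA-Seq of whole mouse kidneys, out of 55401 genes listed in the files. It holds markers of leukocytes, macrophages and lymphocytes, the complement genes *C1qa*, *C1qb*, *C1qc* and *C3*, chemokines, cytokines, and both ligands of the macrophage receptor CSF1R. The genes were taken as a list of names, drawn up with earlier results of these data known: each gene identifier, with its version removed, was matched to its symbol in the GENCODE M21 annotation, and all 35 were found. Kidneys came from 4 controls and 4 mutants of the salt-inducible kinases (SIKs), which are kinases that parathyroid hormone signalling inhibits. Controls carried loxP-flanked (floxed) alleles of *Sik1*, *Sik2* and *Sik3* and no Cre recombinase, and mutants carried floxed alleles of the same genes together with Six2-Cre. The labels list both *Sik1* alleles of the mutants as floxed, whereas the text of the study describes mutants with only 1 floxed *Sik1* allele, so the group is called SIK mutant here. Six2-Cre acts in nephron progenitors and in the tubule cells that descend from them, and leukocytes, which come from the bone marrow or settle before birth, are not in that lineage. The labels give no age, sex, litter or treatment, and do not say whether the samples of a group came from separate litters, so p-values measure the spread between these samples.

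Resident macrophages of the kidney live between the tubules and depend on CSF1R, which binds CSF1 and IL-34. They make C1q, the protein that starts the classical complement pathway, and they release cytokines on stimulation. In macrophages in culture, SIKs hold back *Il10*, the gene of an anti-inflammatory cytokine, through the CRTC coactivators of CREB, so loss of SIK activity in that cell type is known to raise *Il10*.

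Depth was even, with 10179648 to 10925100 expected counts per kidney. *Sik3* was at 58.6, 66.5, 65.7 and 61.0 CPM (counts scaled by library size) in controls 1 to 4 and at 41.4, 39.7, 43.1 and 33.7 CPM in mutants 1 to 4, below every control. *Sik2* was at 9.44, 9.19, 9.95 and 7.97 CPM in controls and at 4.50, 7.31, 9.30 and 5.77 CPM in mutants, where mutant 3 lay within the control range. *Sik1* was not lower in mutants, at 41.1, 36.8, 43.1 and 42.3 CPM in controls and 54.1, 52.3, 52.5 and 43.4 CPM in mutants. All 4 mutants lay above every control, mutant 4 by a small margin (log2 fold change 0.31, unadjusted edgeR p 0.00883, false discovery rate 0.601). The proximal tubule marker *Lrp2* was at 1335 to 1801 CPM in all 8 kidneys. Controls 3 and 4 had 260 and 298 CPM of *Xist*, the RNA of the inactive X chromosome in females, and at most 0.0438 CPM, on average, of 4 Y-linked genes, whereas the other 6 kidneys had at most 0.494 CPM of *Xist* and at least 19.2 CPM of the Y-linked genes. All 4 mutants were on the Y-linked side, so values are given over 8 kidneys and, for genes whose value moved most, against each pair of controls.

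None of the immune genes passed the test over all genes. In edgeR's quasi-likelihood test with Benjamini-Hochberg adjustment, 0 of the 24 immune genes that passed the filter on low counts had a false discovery rate (FDR) under 0.05, and the lowest was 0.572. The background was the same: 0 of 14326 genes tested, or 0%, were called, with a lowest FDR of 0.0586. DESeq2 likewise called 0 of the 24, with a lowest FDR of 0.116, against 0.387% of all genes. At an unadjusted p under 0.05, edgeR listed *Adgre1*, *Lyz2*, *Mrc1* and *Il34*, 4 of 24 genes, against 6.36% of all genes tested. Each was higher in mutants, and 2.76% of all genes had such a p and were higher in mutants. Of the 24, DESeq2 listed the same 4 and *Cx3cr1*. Its fit did not use that filter on low counts, and there it listed 6 of 34 genes of the set, against 3.89% of 25223 genes. The log2 fold change was above 0 for 19 of the 24, against 49.2% of all genes, with a median of 0.20 against −0.0038 over all genes. The values of mutants and controls overlapped for all 24, whereas 4.03% of all genes did not overlap. By the exact two-sided permutation test over the 70 ways to assign the kidneys, whose smallest p is 0.0286, the lowest p of any of the 24 was 0.0571. The standard errors of the log2 fold changes were 0.102 to 0.496, with a median of 0.277. The plot of CPM by kidney shows these 24 genes.

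**Figure D1:**
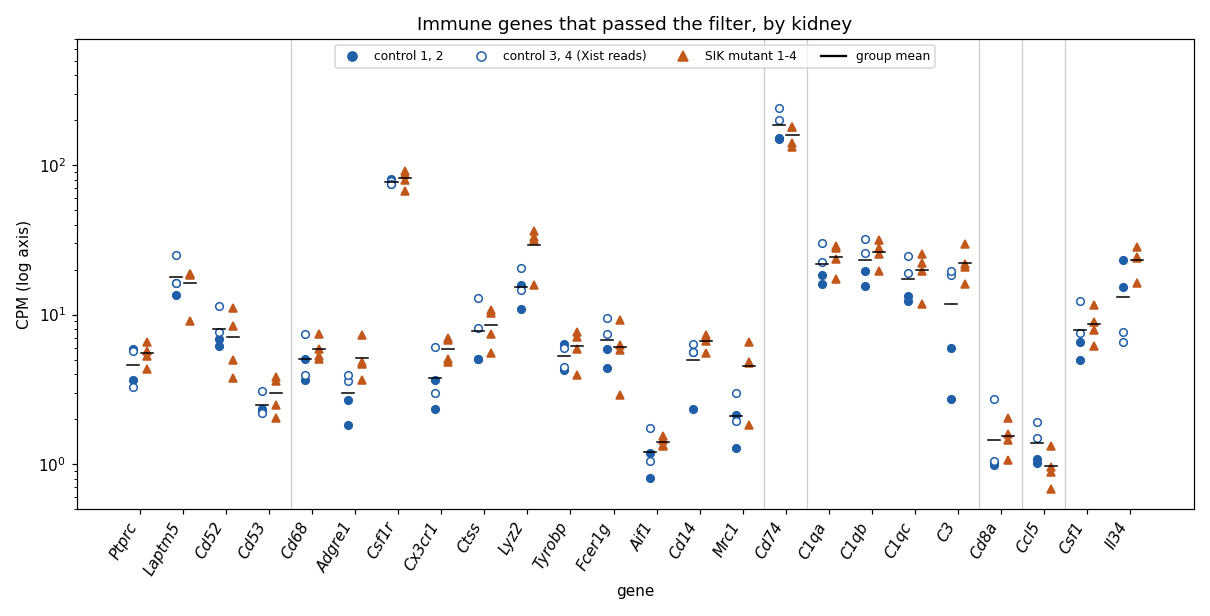
CPM on a log axis for the 24 immune genes that passed the filter, 1 point per kidney; circles are controls (open for controls 3 and 4, which have Xist reads), triangles are SIK mutants, and short black lines are group means. The groups overlap for all 24 genes, and the points of Csf1r lie closest together.

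The other 11 genes were too low to judge. *Il10* had 0 counts in all 8 kidneys. A count of 0 allows up to 3 counts, which is 0.263 to 0.304 CPM depending on the kidney, so *Il10* was not detectable at this depth in either genotype and nothing can be said of its regulation here. *Il6*, a cytokine of the acute response, had 1 count each in controls 2 and 4 and 0 elsewhere. *Tnf*, the macrophage cytokine TNF, had 0, 2, 0 and 5 counts in controls 1 to 4 and 4, 2, 2 and 2 in mutants 1 to 4. *Il1b*, which encodes interleukin-1β, had 12, 6, 6 and 11 counts in controls and 9, 4, 5 and 7 in mutants. None of *Il10*, *Il6*, *Tnf* and *Il1b* thus had more than 12 counts in any kidney, and the ranges of *Tnf* and *Il1b* overlapped between genotypes.

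The chemokine genes *Ccl2*, which draws monocytes, and *Cxcl1*, which draws neutrophils, had at most 9 and 6 counts in any kidney. Among lymphocyte markers, *Cd79a* and *Cd79b*, the signalling chains of the B cell receptor, had at most 8 and 11 counts, and *Nkg7*, a granule protein of cytotoxic lymphocytes, had at most 12. *Itgam*, which encodes the integrin CD11b of myeloid cells, had 7, 10, 8 and 6 counts in controls and 6, 13, 7 and 15 in mutants. *Cd163*, a scavenger receptor for haemoglobin and a marker of tissue macrophages, had 0, 2, 0 and 0 counts in controls and 1, 6, 5 and 5 in mutants. Mutants 2, 3 and 4 were above every control and mutant 1 was not. Fitted with no filter on low counts, *Cd163* had an unadjusted p of 0.0140 and an FDR of 0.741, with 2 counts over all controls against 17 over all mutants. The plot of counts below the filter gives every value of these 11 genes. Counting intervals at this depth cover counting error only and leave out the spread between animals. The libraries hold no molecular identifiers, so reads and not molecules were counted.

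**Figure D2:**
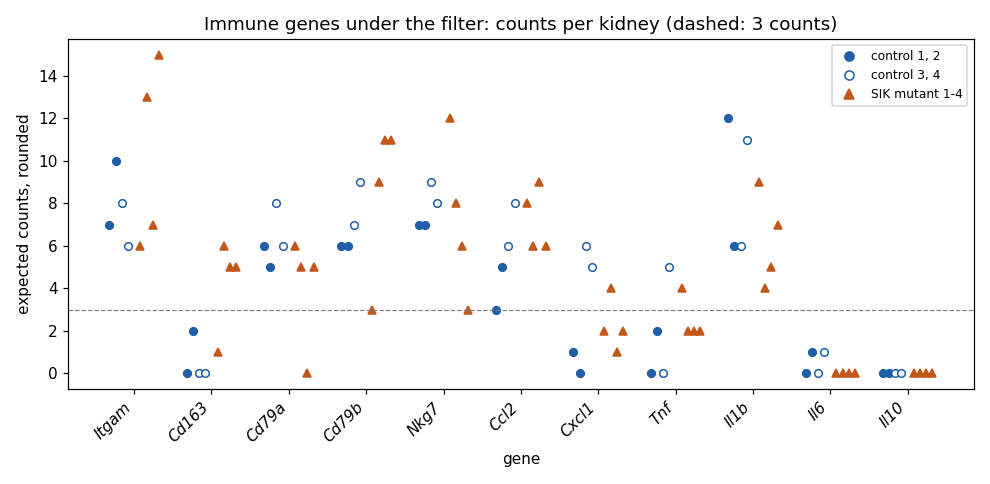
Rounded expected counts per kidney for the 11 immune genes that did not pass the filter; circles are controls (open for controls 3 and 4), triangles are SIK mutants, and the dashed line marks 3 counts. Il10 is at 0 in all 8 kidneys and no kidney has more than 15 counts of any of these genes.

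Pan-leukocyte genes showed no common direction. *Ptprc*, which encodes CD45, the phosphatase of all nucleated blood cells, was at 5.89, 3.66, 3.26 and 5.69 CPM in controls and at 5.74, 6.60, 5.33 and 4.33 CPM in mutants. Only mutant 2 exceeded every control, and the log2 fold change was 0.25 (SE 0.236, edgeR FDR 0.905). *Cd53*, a tetraspanin of leukocytes, had a log2 fold change of 0.28 (SE 0.255). *Laptm5*, a lysosomal membrane protein of blood cells, and *Cd52*, a small surface glycoprotein of lymphocytes and monocytes, lay the other way, at −0.13 and −0.19, and both turned positive when controls 3 and 4 were left out, at 0.14 and 0.12. In whole tissue, fewer cells of a type and less RNA per cell cannot be told apart, so each of these values is a level in the kidney and not a count of cells.

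The macrophage markers held the largest differences. *Lyz2*, the lysozyme of myeloid cells, was at 10.86, 15.7, 14.5 and 20.6 CPM in controls and at 36.1, 32.9, 15.8 and 31.4 CPM in mutants. Mutants 1, 2 and 4 lay above every control and mutant 3 lay within the control range. The mean was 29.0 ± 9.05 CPM in mutants against 15.4 ± 4.01 CPM in controls (SD over 4 kidneys each), and the log2 fold change was 0.91 (SE 0.263, fold 1.88, unadjusted edgeR p 0.00651, FDR 0.572). Its neighbour *Lyz1*, a near copy with which reads can be shared, was at 0 to 0.618 CPM, so few reads were assigned to it. *Lyz2* stayed higher in mutants against controls 1 and 2, at 1.14, and against controls 3 and 4, at 0.73.

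*Mrc1*, the mannose receptor of tissue macrophages, was at 2.13, 1.28, 1.94 and 2.98 CPM in controls and at 4.77, 6.60, 1.84 and 4.81 CPM in mutants. Again mutants 1, 2 and 4 were above every control and mutant 3 was among them. The log2 fold change was 1.11 (SE 0.385, fold 2.15, unadjusted edgeR p 0.0174, FDR 0.712), and it was 1.41 against controls 1 and 2 and 0.88 against controls 3 and 4. *Adgre1*, which encodes F4/80, the antigen by which mouse macrophages are usually sorted, was at 1.83, 2.67, 3.61 and 3.94 CPM in controls and at 7.33, 4.82, 4.65 and 3.66 CPM in mutants. Here mutant 4 was the one within the control range, and the log2 fold change was 0.76 (SE 0.291, fold 1.69, unadjusted edgeR p 0.0275, FDR 0.736), with 1.19 against controls 1 and 2 and 0.44 against controls 3 and 4. *Cx3cr1*, the fractalkine receptor of monocytes and macrophages, was at 2.33, 3.66, 2.99 and 6.04 CPM in controls and at 6.80, 6.96, 5.04 and 4.81 CPM in mutants. Control 4 lay among the mutants, and the log2 fold change was 0.65 (SE 0.289, unadjusted edgeR p 0.0505, FDR 0.781), with 0.99 against controls 1 and 2 and 0.39 against controls 3 and 4.

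*Csf1r*, the receptor that macrophages need to survive, did not follow these genes. It was at 81.3, 74.8, 78.8 and 74.4 CPM in controls and at 91.9, 87.3, 67.3 and 80.0 CPM in mutants, and the mutant values surrounded the control values. Its log2 fold change was 0.08 (SE 0.102), and its coefficient of variation over the 8 kidneys was 9.69%, against 57.2% for *Mrc1* and 43.9% for *Lyz2*. In the annotation, 873 exonic bases of *Csf1r* are shared with *Hmgxb3* on the opposite strand, a gene listed at 24.0 to 31.5 CPM. The use of strand in counting is not given in the sources used here, so reads from the 2 genes may not be told apart there. The other macrophage and myeloid markers varied without a genotype difference past an unadjusted p of 0.05. *Cd14*, the co-receptor for bacterial lipopolysaccharide, was at 2.33, 5.63, 6.34 and 5.603 CPM in controls and 6.62, 7.14, 7.26 and 5.58 CPM in mutants, a log2 fold change of 0.41 (SE 0.271), or 0.74 against controls 1 and 2. *Cd68* (a lysosomal glycoprotein), *Tyrobp* (the adaptor DAP12), *Aif1* (the actin-binding protein IBA1) and *Ctss* (cathepsin S) had log2 fold changes of 0.23, 0.23, 0.22 and 0.12, and *Fcer1g* (the common Fc receptor γ chain) of −0.16. Against controls 1 and 2 these became 0.45, 0.23, 0.50, 0.76 and 0.25, and against controls 3 and 4 they were 0.05, 0.24, 0.0097, −0.31 and −0.47. Of the 13 macrophage and myeloid markers, 11 were tested, 10 of them had a log2 fold change above 0, against 49.2% of all genes, and 3 had an unadjusted p under 0.05, against 6.36%.

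*Cd74*, the invariant chain that guides MHC class II molecules in antigen-presenting cells, had the highest level per length of the set, a mean of 175.5 TPM over the 8 kidneys. It was at 149.7, 152, 199.5 and 241 CPM in controls and at 179, 179, 142 and 132 CPM in mutants. Controls 3 and 4 lay above all 4 mutants and controls 1 and 2 among them. The log2 fold change was −0.23 (SE 0.175, edgeR FDR 0.879) over 8 kidneys, −0.48 against controls 3 and 4 and 0.08 against controls 1 and 2.

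The C1q genes varied from kidney to kidney as a unit. *C1qa* was at 18.5, 16.1, 22.5 and 30.3 CPM in controls and at 27.9, 28.8, 17.3 and 23.6 CPM in mutants. *C1qb* was at 15.6, 19.6, 26.0 and 32.04 CPM in controls and at 31.5, 27.9, 19.6 and 25.6 CPM in mutants. *C1qc* was at 13.4, 12.3, 19.1 and 24.7 CPM in controls and at 25.4, 22.3, 11.7 and 19.5 CPM in mutants. For each chain, control 4 and mutants 1 and 2 were the 3 highest kidneys, and controls 1 and 2 and mutant 3 the 3 lowest. On the TPM scale, which divides by gene length, the ratio of *C1qb* to *C1qa* stayed between 0.7995 and 1.15 within a kidney, and that of *C1qc* to *C1qa* between 0.566 and 0.763, while *C1qa* itself ran from 18.7 to 40.0 TPM. Over 8 kidneys the log2 fold changes of the 3 chains were 0.16, 0.16 and 0.18 (edgeR FDR 0.939, 0.938 and 0.944). Against controls 1 and 2 they were 0.51, 0.58 and 0.63 (edgeR FDR 0.407, 0.350 and 0.441), and against controls 3 and 4 they were −0.11, −0.15 and −0.15.

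The 3 C1q genes lie side by side on the minus strand of chromosome 4 in GRCm38, with *C1qb* at chr4:136880129-136886187, *C1qc* at chr4:136889804-136893065 and *C1qa* at chr4:136895917-136898803. The bases just upstream are shown for the neighbours *C1qb* and *C1qc*, because they varied together, and for *Lyz2* (chr10:117277331-117282321, minus strand) and *Mrc1* (chr2:14229392-14332057, plus strand), because they had the largest differences among the macrophage markers tested. They come from the RefSeq promoter table (GRCm38.p6), which held 23 of the 35 genes, cut so that no base inside the annotated gene is printed. Capitals mark GAGGAA or its complement TTCCTC, the purine-rich core favoured by the macrophage factor PU.1, and TGACG or CGTCA, part of the site bound by CREB. The windows are chr4:136886201-136886450, chr4:136893066-136893164, chr10:117282322-117282522 and chr2:14229164-14229391, each read 5′ to 3′ on the strand of its gene.
C1qb: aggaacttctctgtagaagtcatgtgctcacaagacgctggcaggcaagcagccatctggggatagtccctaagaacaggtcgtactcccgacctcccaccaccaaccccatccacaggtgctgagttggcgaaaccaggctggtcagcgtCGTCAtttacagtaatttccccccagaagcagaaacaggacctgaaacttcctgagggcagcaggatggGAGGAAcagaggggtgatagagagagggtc
C1qc: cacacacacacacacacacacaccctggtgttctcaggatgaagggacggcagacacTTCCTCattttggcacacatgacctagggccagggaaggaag
Lyz2: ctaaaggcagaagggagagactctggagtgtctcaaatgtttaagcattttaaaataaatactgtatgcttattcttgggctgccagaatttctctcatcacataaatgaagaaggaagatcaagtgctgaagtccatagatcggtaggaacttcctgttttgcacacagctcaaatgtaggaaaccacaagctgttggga
Mrc1: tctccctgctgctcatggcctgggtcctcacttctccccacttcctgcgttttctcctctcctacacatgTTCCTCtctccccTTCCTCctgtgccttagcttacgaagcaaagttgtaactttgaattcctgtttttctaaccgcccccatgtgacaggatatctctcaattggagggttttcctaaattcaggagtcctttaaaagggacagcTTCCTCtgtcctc

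GAGGAA, on either strand, was found once in the printed stretch of *C1qb* and once in that of *C1qc*, 3 times in that of *Mrc1* and not in that of *Lyz2*. Over the 250 bases before each start, 13 of the 23 immune genes in the table held it on either strand, against 23.3% of all 32851 windows. TGACG was found in 4 of the 23, *C1qb*, *Cd68*, *Cxcl1* and *Il6*, against 17.8% of all windows. An immune gene was counted if any of its windows held the pattern, whereas the background counts single windows. The share of genes and the share of windows are therefore unlike measures. The 2 patterns did not overlap in the printed stretches, and a match of letters is not a measured binding site.

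*C3*, the central complement component, which tubule cells as well as leukocytes can make, varied most among the immune genes by its range, 10.8-fold from lowest to highest kidney. It was at 2.74, 6.03, 18.4 and 19.6 CPM in controls and at 21.98, 20.7, 16.0 and 29.5 CPM in mutants. Controls 3 and 4 lay with the mutants, and controls 1 and 2 lay far below. Over 8 kidneys the log2 fold change was 0.90 (SE 0.496, unadjusted edgeR p 0.1003, FDR 0.803). Against controls 1 and 2 it was 2.33, with the lowest FDR of the set in that fit, 0.0524, and against controls 3 and 4 it was 0.22. Among 25 other complement genes, 20 were tested, 11 had a log2 fold change above 0, against 49.2% of all genes, and 2 had an unadjusted p under 0.05, against 6.36%, *C7* higher and *C8a*, another component of the same terminal complex, lower. *C7*, a component of the membrane attack complex, was at 0.406, 0.988, 0.881 and 1.14 CPM in controls and 2.12, 2.14, 2.13 and 1.16 CPM in mutants. Every mutant lay above every control, by a small margin for mutant 4, and the log2 fold change was 1.13 (SE 0.347, unadjusted edgeR p 0.00928, FDR 0.613).

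Of the 2 ligands of CSF1R, *Il34*, a cytokine that renal tubule cells make, was low in the 2 controls with *Xist* reads. It was at 23.3, 15.2, 6.52 and 7.70 CPM in controls and at 16.3, 24.4, 24.0 and 28.3 CPM in mutants. Controls 3 and 4 lay below every other kidney, and controls 1 and 2 lay within the mutant range or just under it. Over 8 kidneys the log2 fold change was 0.83 (SE 0.367, fold 1.77, unadjusted edgeR p 0.0493, FDR 0.780). Against controls 1 and 2 it was 0.28 (FDR 0.684), and against controls 3 and 4 it was 1.71 (edgeR FDR 0.00586), the only immune gene called in these 3 fits. In the fit with controls 3 and 4, 4.23% of all genes were called, and sex and genotype cannot be told apart there. *Csf1*, the other ligand, was at 4.97, 6.52, 7.57 and 12.4 CPM in controls and at 11.7, 8.92, 6.20 and 7.89 CPM in mutants. Control 4 was the highest kidney and control 1 the lowest, and the log2 fold change was 0.13 (SE 0.288, edgeR FDR 0.961), with 0.60 against controls 1 and 2 and −0.20 against controls 3 and 4.

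Only 2 genes of lymphocytes and chemokines could be tested. *Cd8a*, the coreceptor of cytotoxic T cells, was at 1.01, 0.988, 2.73 and 1.05 CPM in controls and 1.59, 1.07, 1.45 and 2.02 CPM in mutants, where control 3 was the highest kidney. Its log2 fold change was 0.07 (SE 0.394), with 0.62 against controls 1 and 2 and −0.30 against controls 3 and 4. *Ccl5*, the T cell chemokine RANTES, was at 1.01, 1.09, 1.497 and 1.93 CPM in controls and 1.32, 0.892, 0.678 and 0.962 CPM in mutants. It was the gene with the lowest log2 fold change of the 24, −0.52 (SE 0.320, unadjusted edgeR p 0.138, FDR 0.832), and *Cd74*, *Cd52*, *Fcer1g* and *Laptm5* were the other 4 below 0. Outside the set, T cell markers, a list of 12 genes, summed to 6.43 to 13.9 CPM in controls and 8.08 to 12.9 CPM in mutants, and 2 of them passed the filter. B and plasma cell markers, a list of 10 genes, summed to 11.1 to 19.9 CPM in controls and 14.1 to 20.8 CPM in mutants, and 3 passed. The surface proteins that define these cells were lower, with at most 1.14 CPM of the T cell gene *Cd3e* and 0.704 CPM of the B cell gene *Ms4a1* in any kidney, and the NK cell gene *Ncr1* and the neutrophil gene *S100a8* reached at most 0.0969 and 0.535 CPM.

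Receptors and partners of these genes showed small differences. The receptor list held 28 cytokine and chemokine receptors, of which 19 were tested, 14 had a log2 fold change above 0, against 49.2% of all genes, and 1, *Tgfbr2*, the TGF-β receptor kinase that binds ligand, had an unadjusted p under 0.05. *Il10ra*, the ligand-binding chain of the IL-10 receptor, was measurable although *Il10* was not, at 1.42, 2.27, 2.20 and 3.24 CPM in controls and 2.30, 2.32, 1.55 and 2.40 CPM in mutants, a log2 fold change of −0.10 (SE 0.282). *Il6st*, the signalling chain shared by receptors of the IL-6 family, had a log2 fold change of 0.19, *Il1r1*, the interleukin-1 receptor, of 0.28 (0.72 against controls 1 and 2), and *Tnfrsf1a*, the main TNF receptor, of 0.02. *Cx3cl1*, the ligand of CX3CR1, was at 66.3 to 106 CPM in controls and 71.5 to 97.4 CPM in mutants, a log2 fold change of 0.06. *C3ar1*, the receptor for the C3a fragment, had a log2 fold change of 0.74 (SE 0.382, unadjusted edgeR p 0.0846), or 1.28 against controls 1 and 2, and *Ccr2*, the CCL2 receptor of monocytes, of 0.39.

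Lists of related immune genes outside the set were counted over 8 kidneys, where 49.2% of all genes lay above 0 and 6.36% had an unadjusted p under 0.05. Among 36 other macrophage and dendritic cell genes, 26 were tested, 17 had a log2 fold change above 0, and 1, *Irf8*, had an unadjusted p under 0.05. *Csf3r*, the receptor for granulocyte colony-stimulating factor, was the single tested gene of 12 neutrophil and mast cell markers, at 0.710, 0.692, 0.704 and 0.438 CPM in controls and 1.32, 1.07, 1.07 and 1.83 CPM in mutants. All mutants lay above all controls, with a log2 fold change of 1.05 (SE 0.313, unadjusted edgeR p 0.00789, FDR 0.598), while the other 11 markers of that list did not pass the filter. Of 18 targets of NF-κB and adhesion genes, 12 were tested and 1 had an unadjusted p under 0.05. That gene was *Lcn2*, the lipocalin that injured tubules and neutrophils release, at 3.65, 1.98, 3.43 and 3.59 CPM in controls and 4.50, 9.01, 5.23 and 6.64 CPM in mutants, with no overlap and a log2 fold change of 0.9996 (SE 0.273, unadjusted edgeR p 0.00475, FDR 0.511). Of 10 genes tied to SIK and CRTC signalling in macrophages, 5 were tested, 4 had a log2 fold change above 0 and 0 had an unadjusted p under 0.05 in edgeR or DESeq2. Of 35 other cytokines 11 were tested, 2 had a log2 fold change above 0 and 0 had an unadjusted p under 0.05 in edgeR or DESeq2. Of 29 other chemokines 12 were tested and 8 were above 0. The platelet chemokine gene *Pf4* alone among these 12 had an unadjusted p under 0.05 in edgeR, and 0 had one in DESeq2. The lists of T cell, B and plasma cell, and NK cell markers had 2, 3 and 1 genes tested and 0 with an unadjusted p under 0.05 in edgeR or DESeq2.

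These lists also changed with the controls. With controls 1 and 2 only, where 51.7% of all genes lay above 0 and 11.1% had an unadjusted p under 0.05, 11 of 13 other cytokines lay above 0 and 2 passed that threshold, so the direction of that list turned from the 2 of 11 over 8 kidneys. In the same fit 15 of 20 other complement genes lay above 0 and 6 passed, each higher in mutants. Of 27 other macrophage and dendritic cell genes 22 lay above 0 and 4 passed, and of 20 receptors 16 lay above 0 and 3 passed. With controls 3 and 4 only, where 4.23% of all genes were called, the edgeR FDR was under 0.05 for 1 gene in each of 4 lists. These were *Trac*, the T cell receptor α constant region, higher (FDR 0.0128), and *Tgfb2* (a TGF-β ligand), *Il10rb* (the second chain of the IL-10 receptor) and *C8a*, lower (FDR 0.0428, 0.0475 and 0.0385). Against controls 1 and 2 *Trac* lay the other way, with a log2 fold change of −0.74 and an unadjusted edgeR p under 0.05.

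Many of these values depended on which controls entered the comparison. Controls 3 and 4 lay above controls 1 and 2 for 13 of the 24 genes and below them for 1, *Il34*, whereas 30% and 29.7% of all genes did so. All 4 mutants lay above controls 1 and 2 for 8 of the 24, against 10.1% of all genes, and above controls 3 and 4 for 1, *Il34*, against 15.6%. With controls 1 and 2 against 4 mutants, 26 genes of the set passed the filter, 25 had a log2 fold change above 0, against 51.7% of all genes, and the median was 0.47 against 0.01 over all genes. In that fit 9 had an unadjusted p under 0.05, *Adgre1*, *Cx3cr1*, *Ctss*, *Lyz2*, *Mrc1*, *C1qa*, *C1qb*, *C1qc* and *C3*, against 11.1% of all genes. Each was higher in mutants, and 6.4% of all genes had such a p and were higher in mutants. The FDR was under 0.05 for 0 of the 26, against 0.143% of all genes. With controls 3 and 4 against 4 mutants, 15 of 26 were above 0, against 49.7% of all genes, and 3 had an unadjusted p under 0.05, *Lyz2* and *Il34* higher and *Cd74* lower, against 17.8% of all genes in either direction and 9.47% higher. The plot of fold changes by set of controls shows the 3 fits.

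**Figure D3:**
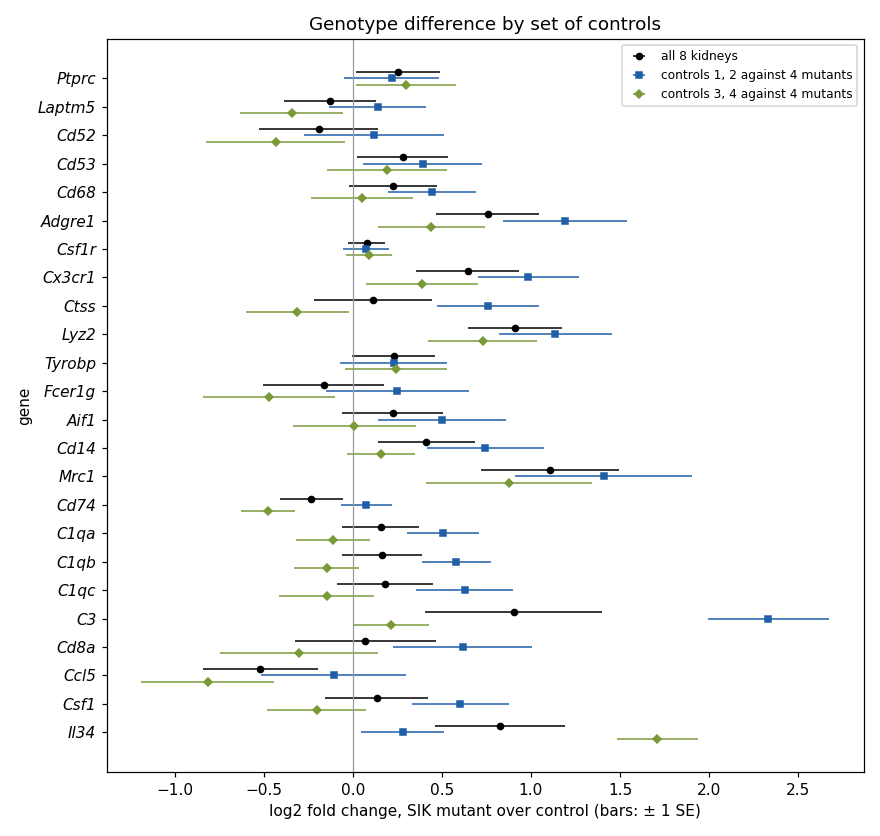
Log2 fold change of SIK mutant over control (x axis) for the 24 immune genes in 3 edgeR fits, with bars of 1 standard error; black circles use all 8 kidneys, blue squares controls 1 and 2 only, and green diamonds controls 3 and 4 only, always against the same 4 mutants. C3 runs from 0.22 to 2.33 and Il34 from 0.28 to 1.71 with the controls used, while Lyz2, Mrc1, Adgre1 and Cx3cr1 stay above 0 in all 3.

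Whole kidneys carried different amounts of immune transcripts whatever their genotype. Of the 24 genes, 11 were highest in control 4, 5 in mutant 1 and 4 in mutant 2, while 8 were lowest in control 1, 7 in mutant 3 and 5 in control 2. Summed over the 35 genes, the level was 383, 389.5, 471 and 572 CPM in controls 1 to 4 and 548, 533, 388 and 460.5 CPM in mutants 1 to 4, a mean of 482 ± 73.8 CPM in mutants against 454 ± 88.5 CPM in controls (SD over 4 kidneys each). The group ranges overlapped. The largest part of this sum in every kidney was *Cd74*, at 149.7 to 241 CPM in controls and 132 to 179 CPM in mutants. The 13 macrophage and myeloid markers alone summed to 121 to 152 CPM in controls and 125 to 189 CPM in mutants. Endothelial markers, a list of 4 genes, summed to 145, 164, 192 and 222 CPM in controls and 204, 179, 164 and 143 CPM in mutants, and all 4 genes were detected in every kidney. Control 4 and mutant 1 were the 2 highest kidneys on the sum of the 35 genes and on the endothelial sum. The part of endothelial content in the immune values was not tested.

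Markers of other cell types also differed between kidneys. The 7 adipocyte markers summed to 22.3, 29.9, 219 and 67.1 CPM in controls and 211, 166, 187 and 262 CPM in mutants, and 6 of 6 tested had a log2 fold change above 0, against 49.2% of all genes. In control 1, 6 of the 7 were at 0. With controls 1 and 2 only, the fit in which 9 immune genes had an unadjusted p under 0.05, all 7 adipocyte markers had one too, against 11.1% of all genes. The edgeR FDR was under 0.05 for 5 of the 7 (lowest 0.0118), against 0.143% of all genes, and the median log2 fold change of the 7 was 6.32. In control 3 the sum was 219 CPM, with *Lyz2* at 14.5 CPM and *Mrc1* at 1.94 CPM. In mutant 3 the sum was 187 CPM, with *Lyz2* at 15.8 CPM and *Mrc1* at 1.84 CPM. *Adipoq*, which encodes adiponectin, was at 0 and 0.790 CPM in controls 1 and 2 and at 5.95 to 21.6 CPM in the other 6 kidneys. *C3* was lowest in the same 2 controls, and the part of adipose tissue in the values of *C3*, *Lyz2*, *Mrc1* and the C1q genes was not tested. The 5 red cell markers summed to 1233, 1010, 865 and 702 CPM in controls and 2967, 731, 878 and 2594 CPM in mutants. *Hbb-bs*, an adult β-globin, was at 764 and 589 CPM in mutants 1 and 4 and at 181 to 289 CPM in the other kidneys. *Lyz2* and *Mrc1* were high in mutant 2 as well, which had few red cell transcripts. Without mutants 1 and 4, a choice made after seeing the data, the log2 fold changes of *Lyz2* and *Mrc1* were 0.66 and 1.01 with unadjusted edgeR p of 0.0836 and 0.0921, and the part of red cell content in them was not tested. Of the set, 15 of the 25 tested were above 0, against 47% of all genes. In that fit 0 of the 25 had an unadjusted edgeR p under 0.05, against 8.28% of all genes in either direction and 4.45% higher. The proximal tubule marker *Slc5a2*, a glucose transporter, was at 454 to 555 CPM in controls and 315 to 321 CPM in mutants, with no overlap (log2 fold change −0.67, edgeR FDR 0.0697). DESeq2 called it (FDR 9.4e-10), against 0.387% of all genes. With controls 3 and 4 only, its edgeR FDR was 0.00622, where 4.23% of all genes were called, and without mutants 1 and 4 it was 0.428. The plot of bars by kidney sets 5 immune genes beside these sums.

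**Figure D4:**
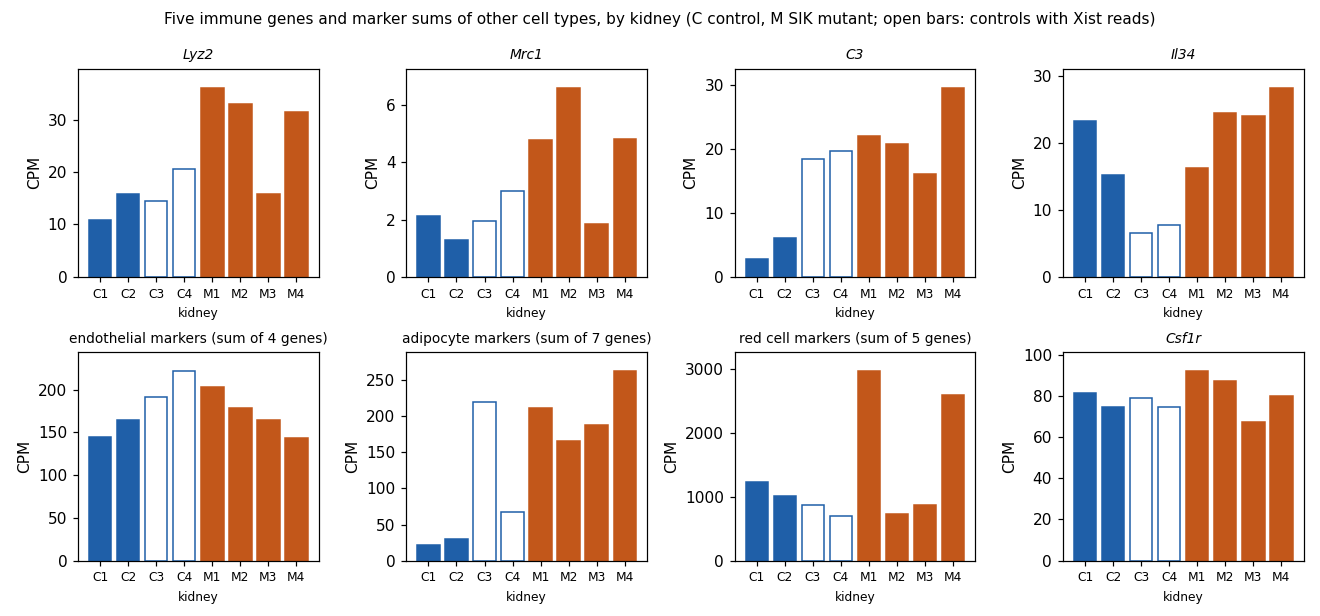
CPM in each kidney (C1 to C4 controls, M1 to M4 SIK mutants; open bars are controls 3 and 4, which have Xist reads) for Lyz2, Mrc1, C3, Il34 and Csf1r and for summed markers of endothelium, adipocytes and red cells, each on an axis from 0. Adipocyte markers and C3 are low in C1 and C2, Il34 is low in C3 and C4, red cell markers are high in M1 and M4, and Lyz2 and Mrc1 are high in M1, M2 and M4.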

How the data were processed

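RNA-Seq libraries were made from whole kidneys of 4 control and 4 SIK mutant mice on a BGISEQ500 instrument. Groups and replicate numbers came from the sample titles and genotypes. The authors quantified each kidney with RSEM and deposited expected counts per gene, which are not normalised and share ambiguous reads among genes. The TPM values deposited by the authors are scaled to gene length and library total. Effective lengths and posterior standard deviations, other values in the deposited files, were only checked. The submitters' processing notes name FastQC, STAR 2.7.2b, RSEM 1.3.0, DESeq2 and the mm10 build. The annotation release and the use of strand are not given in the sources used here. Of 55401 gene identifiers, 55141 matched GENCODE M21 without their version, and 1 symbol of the gene lists had no match.

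Expected counts were rounded and tested with edgeR 4.0.16 (quasi-likelihood F test, TMM, filterByExpr, no covariate) in R 4.3.3, with Benjamini-Hochberg adjustment over 14326 genes and a call at FDR under 0.05. CPM are counts scaled by library size with TMM factors. Single values were also tested by exact two-sided permutation. The scripts were tested on simulated data. Alternatives were DESeq2 1.42.0, limma-trend 3.58.1 on TPM, RLE factors, no filter, a replicate block, Y-linked reads as a covariate or a restriction, and leaving out kidneys. The 35 genes and the other lists were chosen with earlier results of these data known. Text names every gene of the set, and outside it only cell type markers, receptors or ligands of the set, and genes with an unadjusted p under 0.05 and no overlap between groups. *Sik1* to *Sik3*, *Lyz1*, *Hmgxb3*, *Irf8*, *C8a*, *Tgfbr2*, *Pf4*, *Trac*, *Tgfb2* and *Il10rb* were named after their values were seen. Depth was 10179648 to 10925100 expected counts per kidney, and intervals cover counting error only. No replicate pair was a duplicate: chi-square per degree of freedom was 9.75 to 54.0.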

Additional observations from a re-analysis of the deposited data

Results flagged for a closer look

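In groups of 4 kidneys, 3 of 48 group values (24 genes in 2 groups) had 1 kidney set apart from its 3 neighbours by Dixon's gap criterion, where chance gives about 2.4. *Laptm5* was at 9.10 CPM in mutant 3, against at least 18.5 CPM in the other mutants. *Cd53* was at 3.06 CPM in control 4, against at most 2.33 CPM in the other controls. *Cd8a* was at 2.73 CPM in control 3, against at most 1.05 CPM in the other controls.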

How the results depend on the processing

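Over 18 alternatives, 16 planned and 2 chosen after seeing the data (controls 3 and 4 only, and the fit without mutants 1 and 4), 13 of 24 genes kept the sign of their log2 fold change and 11 changed it at least once. The number of all genes called was 0 by edgeR, 71 by DESeq2, 9 with no filter, 4 and 5 by limma-trend on log2(TPM + 1) and log2(TPM + 0.1), 21 in the 6 kidneys with Y-linked reads, 1 with Y-linked reads as covariate, 632 with controls 3 and 4 only, and 0 to 1 when each kidney was left out. The immune genes called stayed at 0, also when each kidney was left out, except for 1 (*Il34*) with controls 3 and 4 only, where its log2 fold change was 1.71. Those with an unadjusted p under 0.05 numbered 4 by edgeR (6.36% of all genes), 9 in the 6 kidneys (11.1%), 10 with the covariate (12.3%), 0 without mutants 1 and 4 (8.28%), and 2 to 6 when each kidney was left out (4.09% to 8.12%), with 2 without control 2 (6.54%) and 2 without mutant 2 (4.09%). The cause of these changes was not tested.

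Signs changed as follows. Without controls 3 and 4, and with the covariate, the log2 fold change was 0.14 and 0.13 for *Laptm5*, 0.12 and 0.11 for *Cd52*, 0.25 and 0.24 for *Fcer1g*, and 0.0757 and 0.0655 for *Cd74*. With controls 3 and 4 only it was −0.31 for *Ctss*, −0.11, −0.15 and −0.15 for *C1qa*, *C1qb* and *C1qc*, −0.30 for *Cd8a* and −0.20 for *Csf1*. Without mutants 1 and 4 it was −0.0016 for *Csf1r*, −0.0335 for *C1qc*, −0.21 for *Cd8a* and −0.0628 for *Csf1*, and by limma-trend on log2(TPM + 1) it was −0.0018 for *Cd8a*. When each kidney was left out it ran from −0.24 to 0.0853 for *Laptm5*, −0.49 to 0.0277 for *Cd52*, −0.0445 to 0.47 for *Ctss*, −0.44 to 0.0653 for *Fcer1g*, −0.0876 to 0.58 for *Cd8a* and −0.0415 to 0.44 for *Csf1*. The limma-trend fits shifted the median of all genes by 0.088 and 0.106, and their values are relative to it.

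With the replicate number as a block, 0 immune genes were called and 3 had an unadjusted p under 0.05, against 4.59% of all genes. Same-numbered kidneys did not deviate together (correlations of −0.156, 0.053, 0.043 and −0.288). Controls with *Xist* reads lay far from the other controls, with chi-square per degree of freedom up to 54.03, against at most 15.65 between mutants. The mutants lack that split, so these correlations cannot decide whether same-numbered kidneys shared a litter or batch. The labels give no litter. Depth limits 11 of the 35 genes, at most 15 counts a kidney.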
